A study of Mus musculus with 8 samples.

Results

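The genes described here are those of the cytotoxic granule: 5 granzymes (Gzma, Gzmb, Gzmc, Gzmk and Gzmm), perforin (Prf1), the granule proteins Nkg7 and Ctsw, the lysosomal membrane protein Lamp1 and the proteoglycan Srgn. They were chosen by name, as the spots whose platform gene symbol was one of these 10, and all 10 were measured, by 11 of the 62976 spots on the array and as 10 of the 20863 named genes. RNA came from whole lung of 4 Fra-2 over-expressing mice (Fra-2 TG) and of 4 wild type mice, all C57BL/6 and 8 weeks old, with 1 single-colour Agilent array per mouse. Fra-2, encoded by Fosl2, is a transcription factor of the AP-1 family. The promoter that drives the transgene is not given in the sources used here.

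Cytotoxic granules are secretory lysosomes of natural killer cells and killer T cells. When such a cell meets a target, the granules fuse with the cell membrane, perforin opens pores in the target's membrane and granzymes, which are serine proteases, enter and cut proteins inside it. Before release the granzymes are held in the granule on the proteoglycan serglycin. Resting natural killer cells of the mouse hold granzyme A, while granzyme B and perforin proteins are largely made after activation, and the lung is rich in natural killer cells.

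Gzma fell in Fra-2 transgenic lung, 15.7-fold, and had the most negative difference of all 20863 genes. It was the only one of the 10 genes past the threshold of 0.05 on the adjusted p over all genes. Gzmb, Prf1, Nkg7 and Ctsw each had all 4 transgenic values below all 4 wild type values, with differences of 1.86-fold to 2.96-fold that did not pass. Gzmk, Gzmm, Lamp1 and Srgn differed by at most 1.24-fold, and Gzmc was dim in both groups.

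Starts of 5 of these genes are printed because 4 of them were lower in the transgenic mice, in Gzma by far the most, while Gzmk, which lies near Gzma on chromosome 13, was not. Each window is RefSeq's (GRCm38.p6), from 250 bases before to 50 bases after a transcription start, read 5′ to 3′ on the gene's strand. It is chr13:113100932-113101231 (minus strand) for Gzma, chr13:113180916-113181215 (minus) for Gzmk, chr14:56262285-56262584 (minus) for Gzmb, chr10:61297586-61297885 (plus) for Prf1 and chr7:43436888-43437187 (plus) for Nkg7. Capitals mark matches, on either strand, to the AP-1 motif TGACTCA, the T-box motif GGTGTGA and the Runx motif TGTGGT.
Gzma: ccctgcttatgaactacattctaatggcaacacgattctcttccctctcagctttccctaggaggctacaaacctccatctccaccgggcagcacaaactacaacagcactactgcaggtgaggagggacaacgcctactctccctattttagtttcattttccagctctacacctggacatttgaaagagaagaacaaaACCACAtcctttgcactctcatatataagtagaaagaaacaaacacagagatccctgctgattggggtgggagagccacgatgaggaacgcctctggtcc
Gzmk: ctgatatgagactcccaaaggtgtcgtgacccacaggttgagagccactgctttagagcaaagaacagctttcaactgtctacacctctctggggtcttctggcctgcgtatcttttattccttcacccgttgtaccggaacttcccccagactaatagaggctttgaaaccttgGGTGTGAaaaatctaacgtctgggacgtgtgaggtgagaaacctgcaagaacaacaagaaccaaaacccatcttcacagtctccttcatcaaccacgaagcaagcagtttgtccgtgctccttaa
Gzmb: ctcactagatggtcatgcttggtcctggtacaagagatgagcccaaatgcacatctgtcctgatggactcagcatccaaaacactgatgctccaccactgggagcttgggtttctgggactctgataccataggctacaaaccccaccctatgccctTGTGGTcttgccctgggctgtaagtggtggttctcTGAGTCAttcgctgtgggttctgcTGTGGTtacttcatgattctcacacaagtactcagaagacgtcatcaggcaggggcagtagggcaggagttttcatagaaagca
Prf1: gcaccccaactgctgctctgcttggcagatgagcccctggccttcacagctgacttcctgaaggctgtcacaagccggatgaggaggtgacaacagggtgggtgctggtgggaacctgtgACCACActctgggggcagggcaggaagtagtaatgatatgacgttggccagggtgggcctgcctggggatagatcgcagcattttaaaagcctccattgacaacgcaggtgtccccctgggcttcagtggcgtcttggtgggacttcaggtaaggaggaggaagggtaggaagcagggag
Nkg7: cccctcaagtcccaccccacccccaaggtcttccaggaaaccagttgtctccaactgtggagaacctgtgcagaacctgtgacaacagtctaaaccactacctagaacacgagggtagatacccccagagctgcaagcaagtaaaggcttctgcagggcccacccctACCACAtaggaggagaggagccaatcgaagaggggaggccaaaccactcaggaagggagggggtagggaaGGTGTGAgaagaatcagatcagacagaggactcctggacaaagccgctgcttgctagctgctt

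For 9 of the 10 genes RefSeq gave 11 windows. The AP-1 motif TGACTCA, a site that Fra-2 and its partners bind, was present in 1 of them. That was the Gzmb window, where it began 58 bases before the start, in the reverse-complement reading TGAGTCA. Of all 32851 windows of this length, 5.2% held it. No other form of AP-1 site was searched for. The T-box motif, bound by the natural killer cell regulators Eomes and T-bet, was found in 3 of the 11 windows (Gzmk, Nkg7 and 1 of the Gzmm starts) and in 3.98% of all windows. In the Nkg7 window it began 13 bases before the start and in the Gzmk window 75 bases before. The Runx motif was in 8 of the 11 windows and in 16.8% of all. Among the printed windows it occurred in those of Gzma, Prf1 and Nkg7 as ACCACA and at 2 places in that of Gzmb as TGTGGT. It was also in windows of Gzmc, Gzmm, Lamp1 and Srgn, whose groups overlapped. No match overlapped another motif in the 5 printed windows. The Ctsw promoter was not used here.

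On the array, all levels are log2 normalised intensities, and differences are transgenic minus wild type on that scale. A level under 4.74, the median of all spots, is called dim. Array medians were alike at 26.6 on the linear scale. The mean correlation of an array with the others of its group was 0.971 to 0.975 in transgenic mice and 0.966 to 0.973 in wild type mice, with mouse 4 the lowest in each group. Lung markers, among them the surfactant gene Sftpb and the endothelial gene Cdh5, were high in all mice, and 0 of 10 differed at an unadjusted limma p under 0.05. Several of them lay at or near the highest level of the arrays (16), where a difference could hardly show. Sftpb, for one, had 15.59 to 15.97 in transgenic mice and 15.95 to 15.98 in wild type mice. Fosl2 itself was read by 2 spots, of which the brighter had 9.38 to 10.63 in transgenic mice and 10.12 to 11.01 in wild type mice, and the dimmer 6.35 to 7.85 in transgenic mice and 3.44 to 5.58 in wild type mice. These spots went opposite ways, so the genotype labels were not checked by them alone.

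Over all genes, 0.216% passed the adjusted threshold in either direction and 0.0911% passed it as lower in transgenic lung. Of the 10 granule genes, 1 fell and 0 rose. At an unadjusted limma p under 0.05, 5 of the 10 were lower, where 3.82% of all genes were, and 0 were higher, where 5.33% of all genes were. Groups that did not overlap, with every transgenic value below every wild type value, were seen in the same 5 genes (Gzma, Gzmb, Prf1, Nkg7 and Ctsw), against 2.54% of all genes. In 0 of the 10 did all transgenic values lie above, against 3.99% of all genes. Over the named spots, 0.178% passed the adjusted threshold, and 1 of the 11 spots of these genes did, that of Gzma. Without both mice numbered 4, the count at an unadjusted limma p stayed at 5. The count of groups that did not overlap was also 5, but leaving mice out cannot make it fall. The shares over all genes are not given for that fit. The median difference of the 10 genes was -0.60, beside 0.014 for all genes.

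Gzma encodes granzyme A, a protease that cuts after basic residues (gene at chr13:113093824-113100981, GRCm38.p6). Its levels were 8.26, 8.75, 9.18 and 9.79 in transgenic mice 1 to 4, against 12.56, 13.30, 13.49 and 12.52 in wild type mice 1 to 4. The highest transgenic level lay far below the lowest wild type level. Means were 8.997 ± 0.648 in transgenic mice and 12.969 ± 0.499 in wild type mice (SD, n = 4 each), a difference of -3.97 (SE 0.36, limma adjusted p = 0.00709). The 95% interval of the difference ran from -4.80 to -3.14. With any 1 mouse left out the difference lay between -4.24 and -3.73, and without both mice numbered 4 it was -4.39 (limma adjusted p = 0.0361).

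Gzmb encodes granzyme B, which cuts after aspartate and activates caspases in the target cell (chr14:56258836-56262334). Its levels were 6.20, 5.92, 5.82 and 6.86 in transgenic mice 1 to 4, against 7.27, 7.97, 8.39 and 7.43 in wild type mice 1 to 4. The groups did not overlap. Means were 6.20 ± 0.47 in transgenic mice and 7.77 ± 0.51 in wild type mice (SD, n = 4 each), 2.96-fold apart (difference -1.57, SE 0.31). The difference did not pass over all genes (limma adjusted p = 0.152; exact permutation p = 0.0286, two-sided, the smallest that 4 against 4 mice can give).

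**Figure D1:**
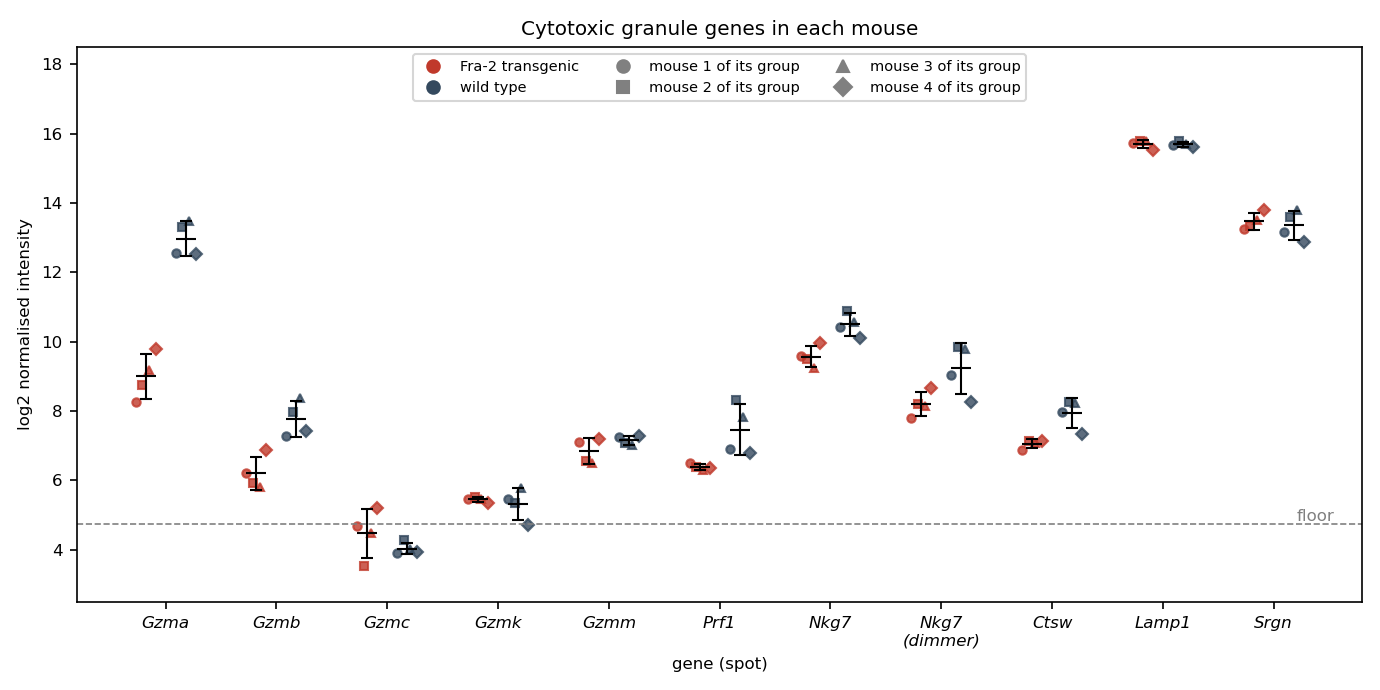
Log2 normalised intensity of the 11 spots of the 10 cytotoxic granule genes in each mouse, Fra-2 transgenic at the left and wild type at the right of each gene, with group mean and SD (n = 4 each) as bars and the floor for dim signals as a dashed line. Gzma has 8.26 to 9.79 in transgenic mice and 12.52 to 13.49 in wild type mice, while the groups of Gzmk, Gzmm, Lamp1 and Srgn overlap.

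The other 3 granzymes had overlapping groups. Gzmk encodes granzyme K, like granzyme A a protease that cuts after basic residues and known from memory T cells (chr13:113171630-113180965, near Gzma). It had 5.46, 5.53, 5.46 and 5.34 in transgenic mice 1 to 4, against 5.45, 5.34, 5.78 and 4.70 in wild type mice 1 to 4. The transgenic values lay inside the range of the wild type values, of which that of mouse 4 was dim. The difference was 0.13 (SE 0.22, 95% interval -0.37 to 0.63, limma adjusted p = 0.889).

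Gzmm encodes granzyme M, a granzyme of natural killer cells that cuts after methionine and leucine (chr10:79689020-79695261). Its levels were 7.12, 6.55, 6.50 and 7.20 in transgenic mice 1 to 4, against 7.25, 7.08, 7.02 and 7.27 in wild type mice 1 to 4. Transgenic mice 2 and 3 were below all wild type mice, and transgenic mice 1 and 4 lay among them. The difference of -0.31 (SE 0.19, 95% interval -0.75 to 0.12) did not pass (limma adjusted p = 0.668).

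Gzmc, a rodent granzyme of the cluster on chromosome 14 that also holds Gzmb (chr14:56231397-56241647), was dim. It had 4.68, 3.52, 4.48 and 5.20 in transgenic mice 1 to 4, against 3.90, 4.28, 4.01 and 3.94 in wild type mice 1 to 4. Only transgenic mouse 4 was above the floor, so no fold is given (limma adjusted p = 0.722). Gzmc and its neighbours Gzmd, Gzme, Gzmf, Gzmg and Gzmn resemble each other closely in sequence, and 1 spot could pick up several of them.

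Prf1 encodes perforin, the pore-forming protein that lets granzymes into the target (chr10:61297751-61304684). It had 6.51, 6.37, 6.31 and 6.35 in transgenic mice 1 to 4, against 6.91, 8.32, 7.83 and 6.78 in wild type mice 1 to 4. The transgenic mice were close together, whereas wild type mice 2 and 3 stood well above wild type mice 1 and 4. Means were 6.39 ± 0.09 in transgenic mice and 7.46 ± 0.74 in wild type mice (SD, n = 4 each), 2.11-fold apart. The difference of -1.07 (SE 0.33) did not pass (limma adjusted p = 0.365; exact permutation p = 0.0286, two-sided).

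Nkg7, a granule membrane protein needed for release of the granules (chr7:43437138-43438246), was read by 2 spots. The brighter had 9.59, 9.49, 9.25 and 9.96 in transgenic mice 1 to 4, against 10.42, 10.89, 10.57 and 10.11 in wild type mice 1 to 4, with no overlap. Its difference was -0.93 (SE 0.21, 1.90-fold, limma adjusted p = 0.201). The dimmer spot had 7.81, 8.20, 8.16 and 8.65 in transgenic mice 1 to 4, against 9.03, 9.84, 9.78 and 8.26 in wild type mice 1 to 4, and here wild type mouse 4 lay below transgenic mouse 4. Both spots had the same direction, the dimmer with a difference of -1.03 (SE 0.36, limma adjusted p = 0.461 over named spots).

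Ctsw encodes cathepsin W, a cysteine protease found mainly in natural killer cells and killer T cells (chr19:5465043-5468628). Its levels were 6.86, 7.15, 7.08 and 7.13 in transgenic mice 1 to 4, against 7.98, 8.26, 8.24 and 7.33 in wild type mice 1 to 4. The groups did not overlap, and wild type mouse 4 came closest to the transgenic mice. Means were 7.06 ± 0.13 in transgenic mice and 7.95 ± 0.44 in wild type mice (SD, n = 4 each), with a difference of -0.89 (SE 0.22, 1.86-fold). It did not pass with all mice (limma adjusted p = 0.231) and passed without wild type mouse 4 (difference -1.10, limma adjusted p = 0.0368).

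The last pair are proteins that cytotoxic cells share with many other cells. Lamp1 encodes a lysosomal membrane protein whose appearance on the cell surface is used as a sign of granule release (chr8:13159161-13175338). It had 15.73, 15.80, 15.77 and 15.54 in transgenic mice 1 to 4, against 15.66, 15.79, 15.69 and 15.63 in wild type mice 1 to 4. These levels are close to the highest on the arrays, where differences can be compressed. The difference was 0.019 (SE 0.11, 95% interval -0.24 to 0.28, limma adjusted p = 0.978).

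Srgn encodes serglycin, on which granzymes are stored and which mast cells, myeloid cells and endothelial cells also make (chr10:62493833-62527445). It had 13.26, 13.33, 13.50 and 13.80 in transgenic mice 1 to 4, against 13.17, 13.59, 13.81 and 12.88 in wild type mice 1 to 4. The transgenic values lay inside the wild type range. The difference was 0.11 (SE 0.23, 95% interval -0.41 to 0.63, limma adjusted p = 0.916).

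**Figure D2:**
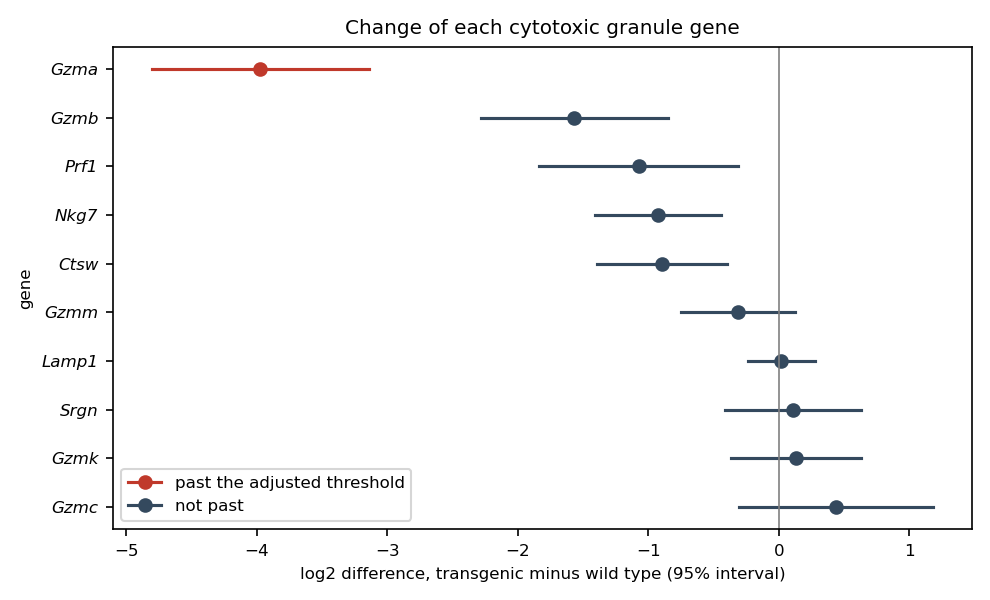
Log2 difference, transgenic minus wild type, of each of the 10 granule genes (points) with its 95% interval from limma (lines, 4 mice per group). Gzma at -3.97 is the one gene past the adjusted threshold. Gzmb, Prf1, Nkg7 and Ctsw lie between -1.57 and -0.89, and Lamp1, Srgn and Gzmk near 0.

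Within each group the same mice recurred at the ends of the range. Among the transgenic mice, mouse 4 was the highest for 6 of the 10 genes, Gzma, Gzmb and Nkg7 included. Among the wild type mice, mouse 4 was the lowest for 7 of the 10, and mouse 2 or 3 the highest for 9 of the 10. Both mice numbered 4 are the arrays that correlated least with their groups.

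Whether the genes changed unequally was asked from the difference between 2 genes within each mouse, for all 45 pairs. Gzma had a more negative change than each of the other 9 genes, by -2.41 (SE 0.28) relative to Gzmb, -2.90 (SE 0.40) relative to Prf1 and -3.05 (SE 0.33) relative to Nkg7, each with the smallest exact permutation p, 0.0286 (two-sided). Of the 45 pairs, 24 reached that p, and after adjustment over the 45 none passed (smallest adjusted p = 0.0536; 24 at an unadjusted p under 0.05). Among Prf1, Nkg7 and Ctsw the changes lay within 0.18 of each other, with exact permutation p from 0.543 to 0.857. With an offset of 32 added before the log2, which compresses dim signals, 28 of the 45 pairs passed. With so few mice, the pairs at the smallest p pass the adjustment all together or not at all. The step from 0 to 28 therefore says little about single pairs.

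Of 13 natural killer cell markers measured, 4 fell and 0 rose in the same mice. At an unadjusted limma p under 0.05, 8 were lower and 1 higher, where 3.82% and 5.33% of all genes were, and 12 had negative differences, as had 47.6% of all genes, with a median of -1.41. Those that fell were Klra8, Klre1 and Klri2, receptors of the killer cell lectin-like family, and Ncr1, the activating receptor NKp46. Klra8 had 5.27, 5.84, 5.44 and 5.52 in transgenic mice 1 to 4, against 8.93, 9.22, 9.53 and 9.69 in wild type mice 1 to 4 (difference -3.83, SE 0.20, limma adjusted p = 0.000888). Since Klra receptors resemble each other closely, that spot could pick up more than 1. Ncr1 was dim in all transgenic mice (3.64 to 4.66) and had 5.96 to 6.57 in wild type mice, at least 2.77-fold lower in transgenic lung (limma adjusted p = 0.0150). The regulators Eomes (-1.38, SE 0.22) and Tbx21 (-1.41, SE 0.36), both with no overlap, did not pass (limma adjusted p = 0.0675 and 0.253). Itga2, the integrin chain CD49b, went the other way, with 6.31, 6.59, 6.62 and 5.58 in transgenic mice 1 to 4, against 5.67, 5.64, 5.77 and 5.52 in wild type mice 1 to 4 (0.62, SE 0.23, limma adjusted p = 0.472). The summed level of the 13 markers, on the log2 scale, was 10.19 to 10.76 in transgenic mice and 11.12 to 11.70 in wild type mice. In RNA from whole lung, fewer cells of a type and less RNA per cell cannot be told apart.

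**Figure D3:**
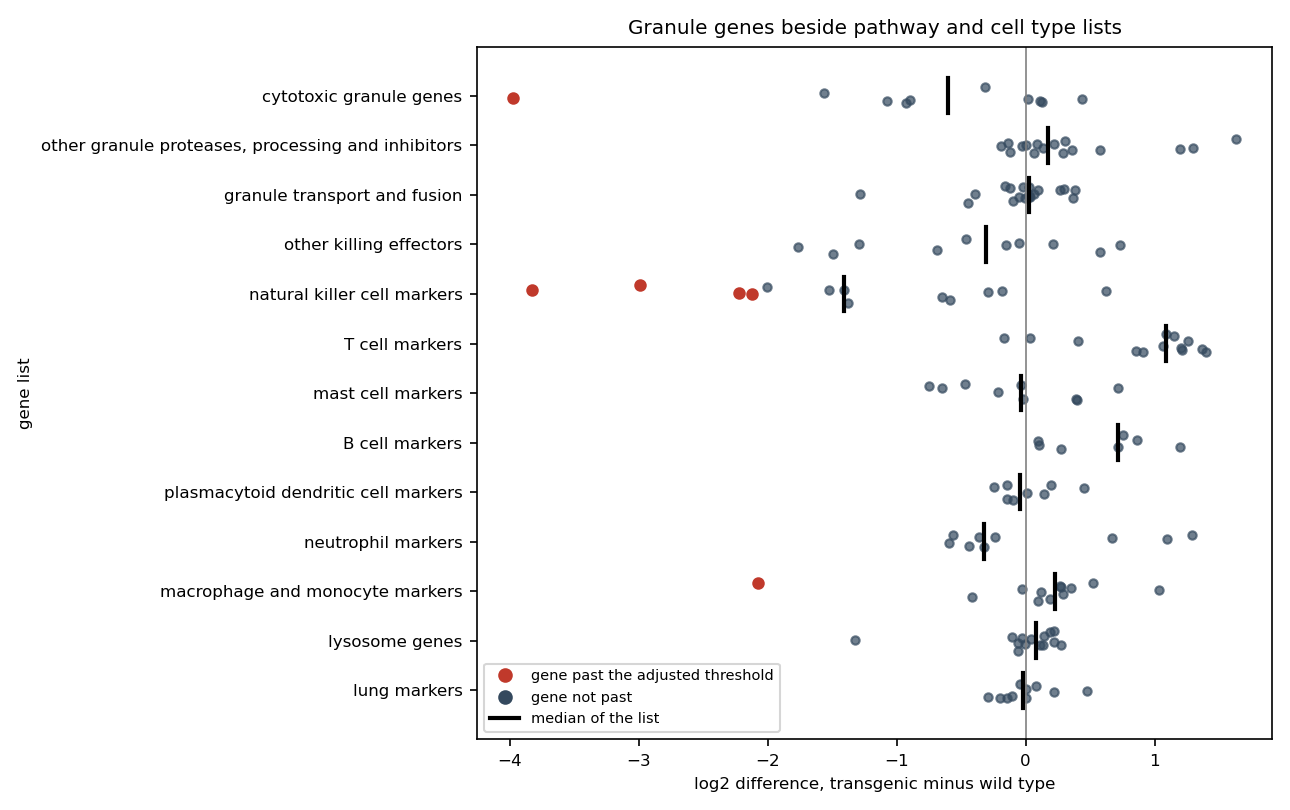
Log2 difference, transgenic minus wild type, of every measured gene in 13 lists (points, 1 row per list) with the list's median as a bar. Red points passed the adjusted threshold. The granule genes (median -0.60) and natural killer cell markers (median -1.41) lie to the left, and T cell markers (median 1.09) to the right.

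Each granule gene was then set against the mean of the natural killer cell markers within each mouse. Of the 13 markers, 12 had a mean over all 8 arrays above the floor. Ncr1 and Klre1 are among these only through their wild type levels, since their transgenic means were dim. The mean of the 12 was 6.02 ± 0.10 in transgenic mice and 7.44 ± 0.25 in wild type mice (SD, n = 4 each), a change of -1.42. Because of that filter the differences from it are given as a description, with no test. Gzma changed by a further -2.55 (SE 0.34) and Gzmb by -0.15 (SE 0.27). Less negative changes than that of the mean were seen in Prf1, by 0.35 (SE 0.32), Nkg7, by 0.49 (SE 0.21), Ctsw, by 0.53 (SE 0.23), and Gzmm, by 1.11 (SE 0.25). Lamp1, Srgn and Gzmk, which hardly changed, lay 1.44 to 1.55 above it.

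Against all 13 markers, with no floor and 3 of them dim on average in transgenic mice, Gzma changed by a further -2.54 (SE 0.35, exact permutation p = 0.0286, two-sided, the smallest possible). Gzmb (-0.14, SE 0.28), Prf1 (0.35, SE 0.30) and Nkg7 (0.50, SE 0.21) had exact permutation p of 0.600, 0.314 and 0.0857, and Ctsw (0.53, SE 0.21) had 0.0286. The sizes moved with the markers averaged. With the 10 markers above the floor in both groups Gzma was at -2.78 (exact permutation p = 0.0286), Gzmb at -0.37, Prf1 at 0.12, Nkg7 at 0.27 and Ctsw at 0.30 (exact permutation p = 0.229), and with the median of the 12 markers Gzma was at -2.19, Gzmb at 0.22, Prf1 at 0.71, Nkg7 at 0.86 and Ctsw at 0.89. With any 1 mouse left out, Gzma lay between -2.78 and -2.35 relative to the mean of the 12. Of the granule genes above the floor, Gzma alone had a change more negative than every one of these averages. Single markers lay far apart, with Klra8 at -3.83 (SE 0.20), close to Gzma at -3.97 (SE 0.36), and Itga2 at 0.62 (SE 0.23). The averages therefore do not stand for each marker.

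**Figure D4:**
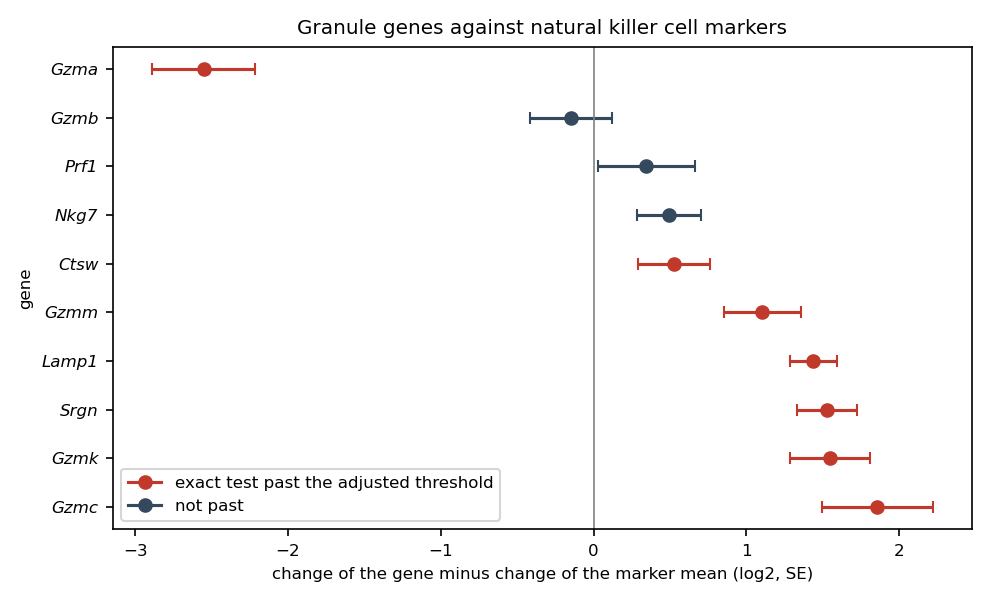
Change of each granule gene minus the change of the mean of 12 natural killer cell markers, on the log2 scale (points, with SE over mice as bars, n = 4 per group). Gzma lies at -2.55, Gzmb at -0.15, Prf1 at 0.35 and Nkg7 at 0.49, with the remaining genes from 0.53 to 1.86. The colours mark an exact test that is not used in the text, since Ncr1 and Klre1 are among the 12 only through their wild type levels.

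T cells are the other cells that carry these granules, and 12 of 13 of their measured markers had positive differences, as had 52.4% of all genes. None of the 13 measured passed over all genes. At an unadjusted limma p under 0.05, 10 were higher, where 5.33% of all genes were, and 0 were lower, where 3.82% of all genes were. The median was 1.09. Cd5 had 9.29 to 10.04 in transgenic mice and 7.68 to 8.64 in wild type mice (1.40, SE 0.24, limma adjusted p = 0.101). Cd8a, which marks the killer T cells, had 6.45 to 7.10 in transgenic mice and 5.41 to 6.30 in wild type mice (0.91, SE 0.24, limma adjusted p = 0.268), while Cd4 differed by 0.034 (SE 0.14). Tcf7 (0.85), Lat (1.15) and Cd6 (1.21) likewise had all transgenic values above all wild type values and did not pass. The summed T cell marker level was 12.47 to 12.94 in transgenic mice and 11.34 to 12.16 in wild type mice on the log2 scale. Its part in the levels of the granule genes was not tested.

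Of 10 other effectors of killing, 0 rose and 0 fell, and 4 were lower and 1 higher at an unadjusted limma p under 0.05, beside 3.82% lower and 5.33% higher of all genes (median -0.31). A single higher gene of 10 is near the share over all genes. Fasl, the death ligand of cytotoxic cells, had 5.49, 5.34, 5.33 and 5.60 in transgenic mice 1 to 4, against 6.28, 7.29, 7.08 and 6.27 in wild type mice 1 to 4. Wild type mice 2 and 3 were again the highest, as for Prf1 (-1.29, SE 0.25, limma adjusted p = 0.150). Ccl5, a chemokine stored by killer lymphocytes, had 11.03 to 11.93 in transgenic mice and 12.17 to 13.29 in wild type mice (-1.49, SE 0.30, limma adjusted p = 0.152). Ccl4, a chemokine that natural killer cells release, differed by -1.76 (SE 0.43, limma adjusted p = 0.228). Lta, lymphotoxin alpha, was the one higher (0.73, SE 0.17, limma adjusted p = 0.217).

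Other granule proteases, their processing enzymes and inhibitors were measured by 16 genes. None passed over all genes, 0 were lower and 4 higher at an unadjusted limma p under 0.05 (3.82% and 5.33% over all genes), and the median was 0.18. Cst7, cystatin F, which restrains the protease that activates granzymes, had 7.52, 7.22, 7.31 and 8.58 in transgenic mice 1 to 4, against 6.34, 6.65, 6.82 and 6.03 in wild type mice 1 to 4. Its values did not overlap, in the direction opposite to Gzma (1.20, SE 0.32, limma adjusted p = 0.291). Ctsc, the protease that trims granzymes to their active form, differed by 0.22 (SE 0.21). Serpinb6a, an intracellular protease inhibitor, differed by 0.29 (SE 0.13, limma adjusted p = 0.538). The 4 higher genes were Cst7, Serpinb6a, Gzmd and Gzmg, of which Gzmd and Gzmg had group means under the floor in both groups.

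Of 19 genes of granule transport and fusion, 0 passed over all genes and 1 was lower at an unadjusted limma p under 0.05, a share near the 3.82% of all genes, with a median of 0.023. That one was Sytl3, a synaptotagmin-like protein that binds Rab27, with 5.90 to 6.65 in transgenic mice and 6.57 to 8.15 in wild type mice (-1.29, SE 0.33, limma adjusted p = 0.262). Rab27a, the GTPase that docks granules at the membrane, differed by -0.39 (SE 0.17, limma adjusted p = 0.554), and Rab7 by -0.16 and Vamp7 by 0.36. Of 14 lysosome genes, set beside Lamp1, 0 passed and the median was 0.078. Ctsa, the protective protein cathepsin A, differed most (-1.32, SE 0.29, limma adjusted p = 0.193), and Ctsb by 0.22, Ctsz by 0.19 and Grn by 0.22.

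Other cells that make Srgn or single granzymes were read by their markers. Of 9 mast cell markers 0 passed, 3 were dim on average, among them Ms4a2 and Tpsab1 with every mouse under the floor, and the summed level was 13.11 to 13.34 in transgenic mice and 13.13 to 13.35 in wild type mice. Cma1, the mast cell chymase, was dim in transgenic mice (4.16 to 4.66) and had 4.38 to 5.42 in wild type mice (limma adjusted p = 0.477). Of 8 plasmacytoid dendritic cell markers 0 passed, with a median of -0.044 and -0.25 (SE 0.20) for Siglech. Of 9 neutrophil markers 0 passed (median -0.32), with Ltf at 0.67 (SE 0.36) and Retnlg at -0.56 (SE 0.37). Of 12 macrophage and monocyte markers, Marco, a scavenger receptor of macrophages, fell by 2.08 on the log2 scale (SE 0.22, limma adjusted p = 0.0105), a call lost without transgenic mouse 1 or 2 and without both mice numbered 4, and the median was 0.23. Of 7 B cell markers 0 passed, and all 7 had positive differences, as had 52.4% of all genes, with overlapping groups in each. Ms4a1 differed by 1.19 (SE 0.51), with its highest level in transgenic mouse 4 (12.54) and its lowest in wild type mouse 4 (9.01). The part of these cells in the levels of the granule genes was not tested.

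Genes whose levels followed Gzma most closely were sought by Pearson correlation over the 8 arrays. Only genes with a mean over all 8 arrays above the floor were used. Since the groups of Gzma lie far apart, such a correlation mostly reads the difference between groups, and it is given as a description. The 5 highest were Fam71f2 (0.984), Klre1 (0.976), Klra7 (0.974), Klra23 (0.972) and Klra4 (0.972). The last 4 are receptors of natural killer cells. Of these, Klre1 passed the floor only through its wild type levels, since its transgenic mean (4.45) was dim. Fam71f2 had 7.15 to 7.46 in transgenic mice and 7.74 to 7.93 in wild type mice, a small difference that did not pass (-0.48, limma adjusted p = 0.244).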

How the data were processed

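The deposited table holds linear intensity values that the authors made, 62976 spots by 8 arrays. Per the submitters' processing notes, limma 3.14.4 was used with R 2.15.1. Background and normalization steps are not stated there. The values show a common distribution on all arrays. No flags for saturation or background were used here, so the median of all spots (26.6, log2 4.74) was taken as the floor. Where 1 group's mean lay under it, the fold is a bound against values raised to the floor.

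Symbols of 31465 spots came from the platform annotation, updated through RefSeq accessions (29050 matched, 2933 replaced), which gave 20863 genes. The brightest spot over all 8 arrays stood for a gene. The log2 of each intensity was modelled on group alone with limma 3.58.1 (lmFit, eBayes; R 4.3.3), with no filter. Benjamini-Hochberg adjustment ran over all genes or all named spots, with a threshold of 0.05. Single values within mice were compared by exact permutation over the 70 splits. Replicates are separate mice per the labels, and their number limits the precision. The fit was also run on simulated data, with noise drawn independently for each gene and array. The outcome of that run is not given here, and no result rests on it.

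The granule genes, the 12 other lists and the tests were chosen with earlier results of these data known. Named genes are all 10 granule genes, Fosl2, up to 4 genes with the smallest p from each list and the 5 genes most like Gzma. Others (Eomes, Tbx21, Itga2, Klrb1c, Cd8a, Cd4, Ctsc, Sftpb, Cdh5, Ms4a2 and Tpsab1) were named after their values were seen. Plots used matplotlib 3.10.9 under Python 3.11.15. Alternatives were offsets, scalings, a filter, variance models, spot rules, a replicate block and mice left out. After the data were seen, 4 other ways to average the natural killer cell markers were added, as were counts at an unadjusted p without both mice numbered 4.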

Additional observations from a re-analysis of the deposited data

Results flagged for a closer look

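Among the 22 groups of 4 values (11 spots in 2 groups of mice), none had a highest or lowest mouse set apart from the others by Dixon's test at the 95% level.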

How the results depend on the processing

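Gzma kept its direction under all 21 alternatives (-4.39 to -3.73) and its call in 20. Gzmb, Prf1, Nkg7, Ctsw and Gzmm kept a negative difference in all 21. Quantile and percentile scalings changed nothing, since the arrays already shared 1 distribution. The count of granule genes past the threshold, 1 with all mice, became 4 with array weights and 4 with an offset of 32 and both mice numbered 4 left out (Gzma, Gzmb, Nkg7 and Ctsw each time), and ran from 1 to 2 when single mice were left out (2, with Ctsw, lacking wild type mouse 4), as did the count of spots (1 to 2). The cause was not tested.

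The labels do not say whether same-numbered mice of both groups share more than the number. Over all genes they correlated by -0.012 to 0.051 in their deviations from group means, which does not speak to single genes. With the mouse number as a replicate block, 0 granule genes and 0 of their spots passed (Gzma limma adjusted p = 0.0919), beside 1 natural killer cell marker, 0 macrophage markers and 5 of all genes. That fit has fewer residual degrees of freedom.

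Natural killer cell markers past the threshold ran from 2 to 4 with single mice left out (2 lacking wild type mouse 2). They were 2 without both mice numbered 4. At an unadjusted p 10 of 13 were then lower (share of all genes not given). Macrophage markers ran from 0 to 1, and were 0 without both mice numbered 4. T cell markers past the threshold became 2 with an offset of 32 and 1 with dim genes filtered out. Pairs of granule genes with unequal change became 28 with the offset of 32, and were 0 with any 1 mouse left out. Pairs at the smallest exact permutation p pass this adjustment all together or not at all, so these counts move in 1 step. Granule genes that differed from the mean of all 13 markers, at an exact permutation p adjusted over the 10 genes, numbered 7. All 7 were tied at the smallest exact permutation p. With the 10 markers above the floor in both groups the count was 0, though Gzma (-2.78) was still at the smallest exact permutation p, 0.0286. Here too, genes at the smallest p pass all together or not at all, so these counts say little about single genes. No count is given for the mean or median of the 12 markers, which Ncr1 and Klre1 entered only through their wild type levels. Against that mean, Gzma was at -2.35 lacking transgenic mouse 1 and -2.78 lacking transgenic mouse 4. With the receptors Ncr1, Klre1, Klrb1c, Klri2 and Klra8 alone the count was 10. Those 5 are the markers with the most negative differences and were picked after their values were seen, so that this last count says nothing further.

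Differences near 0 changed sign. Gzmk was -0.012 with array weights, -0.041 without both mice numbered 4 and -0.027 with the offset of 32 as well. Srgn was -0.087, -0.16 and -0.16 in the same fits. With single mice left out, Gzmk ran from -0.076 (wild type mouse 4) to 0.28, Srgn from -0.053 (wild type mouse 4) to 0.26 and Lamp1 from -0.011 (transgenic mouse 2) to 0.077. Srgn was -0.0017 without transgenic mouse 4, and Lamp1 -0.0028 and -0.0030 without transgenic mouse 3 or wild type mouse 4. Against the markers, Gzmb turned to 1.07 with the 5 receptors and 0.22 with the median of the markers.

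All genes past the threshold numbered 45, 17 to 38 with 1 mouse left out, 17 without both mice numbered 4, 80 and 88 with offsets of 16 and 32, 71 with dim genes filtered out, 85 with a variance trend, 100 with array weights and 200 with the offset of 32 and both mice numbered 4 left out. A slide or scan block was not run, as neither is given. Dim signals limit Gzmc, Gzmk and Ncr1.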
